A study of Mus musculus with 4 samples.

Results

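The RNA exosome genes described here are 10 of the 30828 genes listed in the 2 deposited count matrices. They were taken by symbol and chosen by their family and by the measured levels of Exosc2 and its partners in germ, Sertoli and stromal cells of the 2 genotypes. Exosc1, Exosc2 and Exosc3 encode the cap of the complex, Exosc4, Exosc5, Exosc7, Exosc8 and Exosc9 encode 5 subunits of its ring, and Exosc10 and Dis3 encode its ribonucleases. The gene of the remaining ring subunit, Exosc6, was listed at 0 UMIs in every cell class of both libraries. It lies wholly inside Aars on the same strand (1326 bases, 100% of its length), and its level is not analysed here.

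The RNA exosome degrades and trims RNA from the 3′ end, in the nucleus and in the cytoplasm. Its ring and cap form a barrel without catalytic activity in mammals, through or around which RNA reaches DIS3 and EXOSC10, and helicase cofactors such as MTR4 (Skiv2l2) and SKI2 (Skiv2l) feed RNA into it. CNOT3 is a subunit of CCR4-NOT, the deadenylase that shortens poly(A) tails, and mRNA without a tail can be degraded from its 3′ end by the exosome. The 2 complexes thus act at successive steps of mRNA decay, and the comparison asks how transcripts of the second stand where a subunit of the first is deleted.

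Testis cells were taken at P8 (postnatal day 8) from Cnot3flox/flox; Ddx4-creER mice (Cnot3-cKO) and from Cnot3flox/flox littermates without Cre (control, called wild-type in the labels), sorted for CD9 and THY1, and profiled by 10x Genomics 3′ single-cell RNA-seq. Ddx4-creER is a tamoxifen-inducible Cre driven by a germ cell promoter, so both genotypes carry floxed Cnot3 and both received 4-OHT, the active form of tamoxifen. The labels list 2 samples per genotype, with titles alike but for the prefixes NS and NOV, and the sources used here do not say whether these were separate animals or cell suspensions. The study's methods name both a NextSeq and a NovaSeq sequencer for these libraries. The 2 samples may thus be 2 sequencing runs, but no source says that the prefixes stand for the sequencers. Injections are labelled as P1 to P1 and P1 to P2 in the controls and P1 to P3 and P1 to P4 in the Cnot3-cKO, whereas the study's methods give P1 to P3 for all. Which of these holds is not settled here, and if the labels hold, dosing and genotype cannot be told apart. Each matrix merges the 2 samples of its genotype, so there is 1 library per genotype, no replicate check and no test between genotypes. Intervals below are 95% intervals that cover counting error only.

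The control library held 181550221 UMIs and the Cnot3-cKO library 168770743, from which 7774 and 8815 cells were kept. Of the called barcodes, 18 occurred in both libraries. Germ-like cells numbered 1153 in the control and 485 in the Cnot3-cKO, with a median of 41389 and 45144 UMIs per cell, Sertoli-like cells 2875 and 4339 (13279 and 12746 UMIs), and stromal cells, which here include peritubular myoid-like cells, 3656 and 3882 (13785 and 12913.5 UMIs). Levels are given as CPM, the UMIs of a gene per 1000000 UMIs of the same cells. The 8 germ markers summed to 2740 CPM in control germ-like cells against 32.5 in Sertoli-like and 32.0 in stromal cells. Cnot3 itself was at 70.77 CPM in germ-like cells of the control and 37.99 in those of the Cnot3-cKO (log2 ratio -0.90, interval -1.01 to -0.79), at 63.8 and 67.3 in Sertoli-like cells and at 45.6 and 45.1 in stromal cells. This check of the labels is limited, since 3′ tags need not lie in the deleted part of the gene.

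Exosc2 and Dis3, whose levels differed most between the germ-like cells of the 2 libraries, start at the promoters below. Each is shown because both genes were higher in the Cnot3-cKO, from 250 bases before to 50 bases after the transcription start, as given by RefSeq on GRCm38.p6, 5′ to 3′ on the strand of the gene. Capitals mark matches to the motifs GCGC, any base and TGCGC (NRF1), TGCGCA (a part of the NRF1 site), AAGATGGCG (YY1), CCGGAAG (ETS) and CCAAT, searched on both strands. The NRF1 match and TGCGCA overlap in Exosc2.
Exosc2, chr2:31670465-31670764, plus strand: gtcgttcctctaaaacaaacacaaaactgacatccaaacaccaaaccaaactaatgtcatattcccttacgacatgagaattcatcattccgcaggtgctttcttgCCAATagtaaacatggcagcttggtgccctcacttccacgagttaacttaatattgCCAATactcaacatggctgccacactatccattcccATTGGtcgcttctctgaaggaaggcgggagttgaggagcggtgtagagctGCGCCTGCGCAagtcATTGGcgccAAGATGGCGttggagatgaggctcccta
Dis3, chr14:99099721-99100020, minus strand: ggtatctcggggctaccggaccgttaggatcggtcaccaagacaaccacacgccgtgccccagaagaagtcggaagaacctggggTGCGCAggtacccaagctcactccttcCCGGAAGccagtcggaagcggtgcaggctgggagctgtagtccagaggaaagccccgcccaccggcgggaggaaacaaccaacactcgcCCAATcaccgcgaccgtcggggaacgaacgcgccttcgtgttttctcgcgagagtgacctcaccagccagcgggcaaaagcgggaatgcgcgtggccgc
Promoters of 8 of the 10 genes were in the table used. The NRF1 motif occurred in 4 of the 8 (Exosc1, Exosc2, Exosc5 and Exosc7) and in 4.60% of 32851 promoters, TGCGCA in 4 of the 8 (Exosc1, Exosc2, Exosc5 and Dis3) and in 7.76%, and CCGGAAG in 3 of the 8 (Exosc3, Exosc10 and Dis3) and in 8.86%. AAGATGGCG occurred in Exosc2 alone of the 8 and in 1.40% of promoters, and CCAAT in 4 of the 8 (Exosc1, Exosc2, Exosc5 and Dis3) and in 37.4%. Exosc10 had 2 listed promoters and was counted if either matched, whereas the percentages are per promoter. These are letter matches and were not tested as binding sites.

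In control cells, transcripts of the exosome were at a higher level in germ-like cells than in the somatic classes. Summed over the 10 genes, the level was 1008 CPM in germ-like, 498 in Sertoli-like and 346 in stromal cells. All 10 genes were higher in germ-like than in Sertoli-like cells, 6 of them by over 1.5-fold (38.1% of 13110 genes were), with a median log2 ratio of 1.01. All 10 were also over 1.5-fold higher than in stromal cells (43.2% of 13703 genes were), with a median of 1.26. Dis3, the processive ribonuclease of the complex, stood at 112.9 CPM in germ-like, 17.2 in Sertoli-like and 22.2 in stromal cells, a log2 ratio of 2.71 (2.60 to 2.83) over Sertoli-like cells. Exosc8 stood at 233.8, 66.7 and 46.8, and Exosc2 at 87.3, 29.4 and 16.8. The ring genes Exosc4 and Exosc5 differed little between germ-like and Sertoli-like cells (82.9 against 76.6 and 94.5 against 86.1 CPM). In the Cnot3-cKO library 7 of the 10 were over 1.5-fold higher in germ-like than in Sertoli-like cells (35.5% of 12791 genes were), and all 10 were so over stromal cells (42% of 13154 genes). These are levels of 3′ tags, so each gene is compared between cells and not with another gene.

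**Figure D1:**
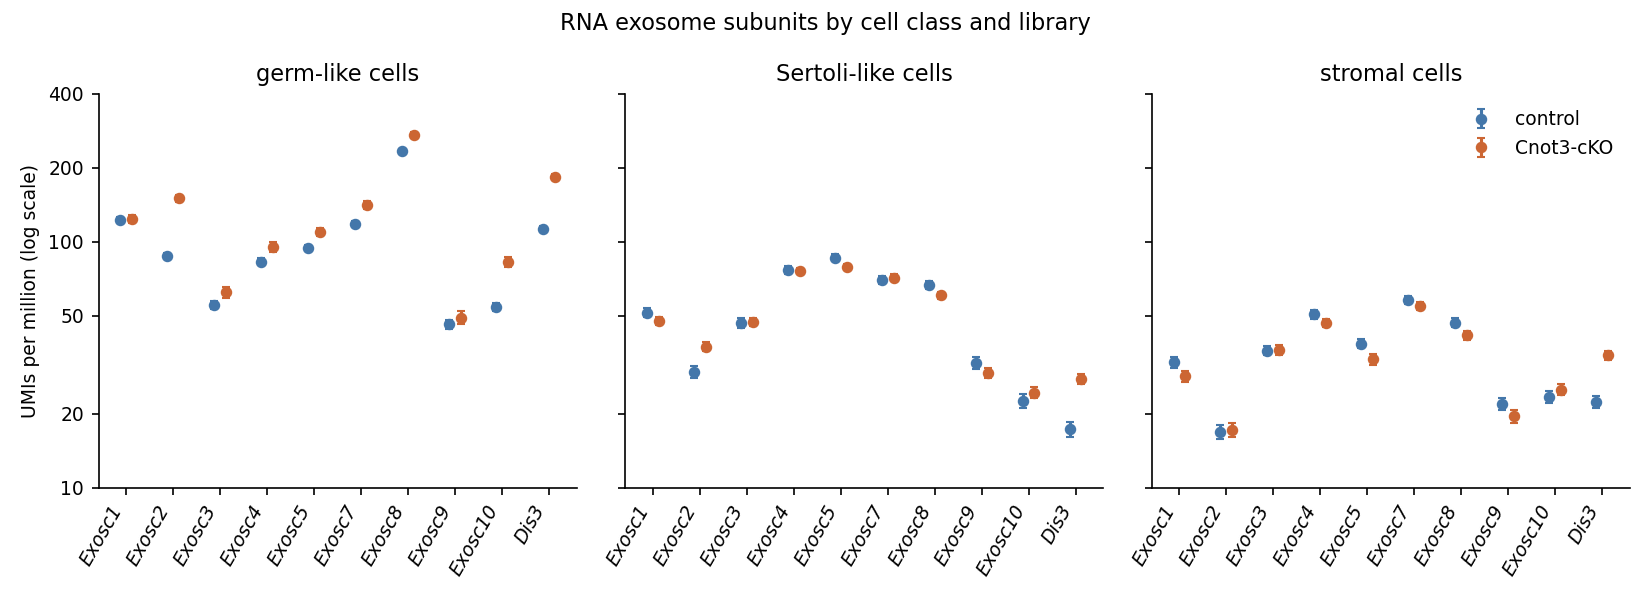
Level of each of the 10 exosome genes in germ-like, Sertoli-like and stromal cells, in CPM on a log axis, for the control (blue) and Cnot3-cKO (orange) library. Bars are 95% Poisson intervals. Levels of Dis3 were 112.9 and 183.0 in germ-like cells but 17.2 and 27.7 in Sertoli-like cells.

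Between genotypes, 3 of the 10 genes were over 1.5-fold higher in Cnot3-cKO germ-like cells, Exosc2, Exosc10 and Dis3, and none was over 1.5-fold lower. Of the 12641 genes that had 100 UMIs or more over both libraries in germ-like cells, 7.83% were higher by that much and 3.54% lower. All 10 genes passed this filter in each class, and all 10 log2 ratios were above 0 in germ-like cells, with a median of 0.21 against 0.02 over all genes tested. Over all genes tested, 52.7% of the ratios were above 0. With either other scaling 9 of the 10 were above 0, Exosc1 being the exception, and Exosc10 fell short of 1.5-fold (0.57 with median-of-ratios scaling and 0.56 with totals less mitochondrial and the 50 most abundant genes). The summed level was 1008 CPM in the control and 1267 in the Cnot3-cKO, a log2 ratio of 0.33 (0.31 to 0.35). This contrast was in view when the genes were chosen, so these values are a description.

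Of the cap genes, Exosc2 (chr2:31670715-31681349, plus strand), which encodes the cap protein RRP4, was at 87.3 CPM in germ-like cells of the control (84.6 to 90.0, from 4161 UMIs) and 150.2 in those of the Cnot3-cKO (145.1 to 155.4, from 3309 UMIs). The log2 ratio was 0.78 (0.72 to 0.85), a 1.72-fold difference, and 4.26% of the genes tested had a higher ratio. The other cap genes stood much closer between the libraries. Exosc1 was at 122.6 and 124.0 CPM (log2 ratio 0.02, -0.05 to 0.08), an interval that spans 0, with a ratio below 0 under both other scalings (-0.006 and -0.025), and Exosc3, encoding RRP40, was at 55.3 and 62.3 (0.17, 0.08 to 0.27).

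The 5 ring genes, which build the hexameric barrel, were all slightly higher in the Cnot3-cKO, with log2 ratios of 0.09 to 0.25. Exosc8 was at 233.8 CPM in the control and 271.6 in the Cnot3-cKO (0.22, 0.17 to 0.26). Exosc7 was at 117.9 and 140.6 (0.25, 0.19 to 0.32), Exosc5 at 94.5 and 109.2 (0.21, 0.14 to 0.28), and Exosc4 at 82.94 and 94.99 (0.20, 0.12 to 0.27). Exosc9 was at 46.1 and 49.0 (0.09, -0.02 to 0.19), so that counting error alone covers its difference.

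Both ribonuclease genes were past 1.5-fold. Exosc10 (chr4:148558429-148582401, plus strand), the nuclear distributive ribonuclease, was at 54.4 CPM in germ-like cells of the control and 82.3 in those of the Cnot3-cKO, 1.51-fold (log2 ratio 0.60, 0.51 to 0.68). It lay just past the limit and fell short of it in 9 of 15 alternatives, with the ratio above 0 in all 15. Alternatives that changed only the clustering left the germ-like cells the same and so repeat the value as reported. Dis3 (chr14:99075206-99099770, minus strand) was at 112.9 and 183.0, 1.62-fold (0.70, 0.64 to 0.76). Without Exosc2, Exosc10 and Dis3, the summed log2 ratio of the remaining 7 genes was 0.18.

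**Figure D2:**
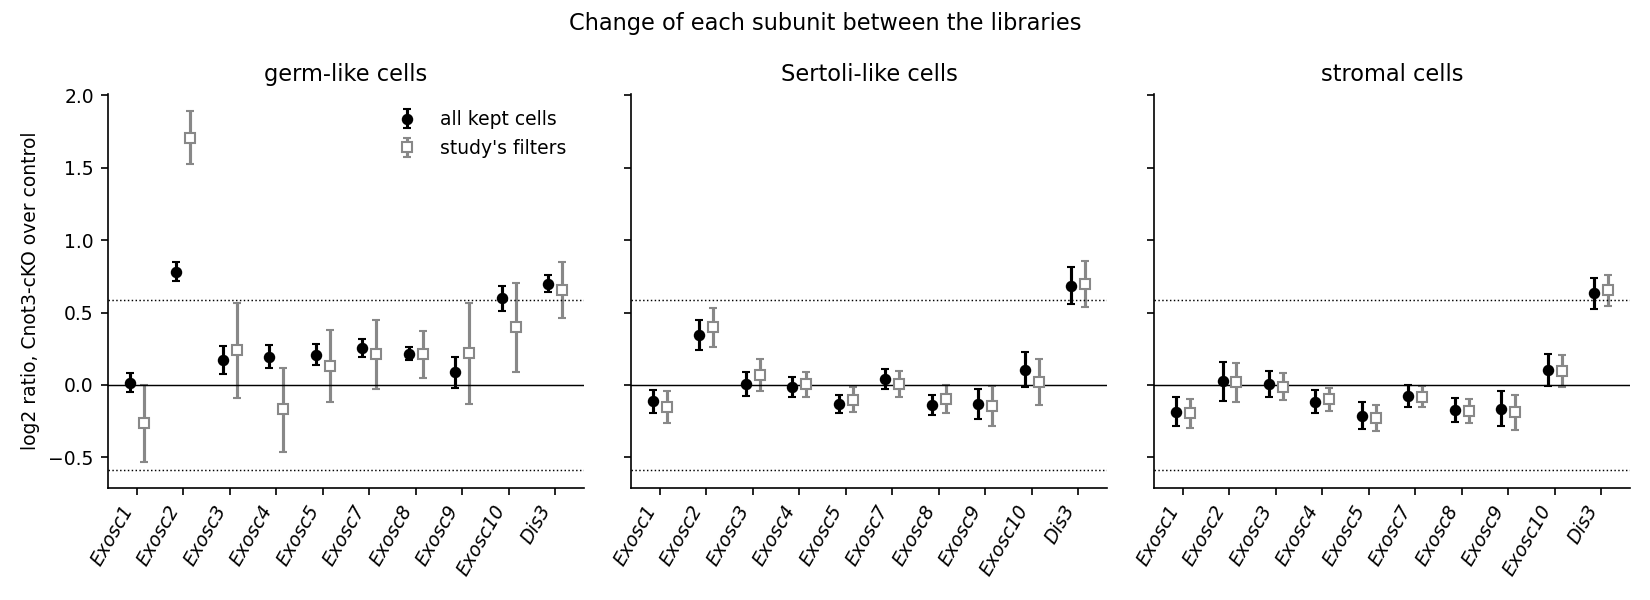
Log2 ratio of Cnot3-cKO over control for each exosome gene in 3 cell classes, with 95% counting intervals. Filled circles are all kept cells and open squares the cells left by the study's filters, and the dotted lines mark 1.5-fold. Dis3 lies past the upper line in all 3 classes, at 0.70, 0.69 and 0.63, and Exosc2 only in germ-like cells.

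In somatic cells, where the germ cell promoter should not drive Cre, the summed level of the 10 genes was nearly the same in both libraries. It was 498 CPM in control and 499 in Cnot3-cKO Sertoli-like cells (log2 ratio 0.00, -0.02 to 0.03), and 346 and 337 in stromal cells (-0.04, -0.07 to -0.01). In Sertoli-like cells 5 of 10 ratios were above 0 (60.7% of 12066 genes were). There 1 gene was over 1.5-fold higher (1.1% were) and none lower (0.961% were). In stromal cells 4 of 10 ratios were above 0 (44.5% of 12789 genes were). There 1 gene was over 1.5-fold higher (1.29% were) and none lower (0.946% were). Both times that gene was Dis3. Exosc2 was at 29.4 and 37.4 CPM in Sertoli-like cells (0.35, 0.24 to 0.45) and at 16.8 and 17.1 in stromal cells (0.02, -0.11 to 0.16). Exosc10 was at 22.5 and 24.3 in Sertoli-like cells (0.11, -0.01 to 0.23) and had 1250 and 1330 UMIs in stromal cells (0.10, -0.01 to 0.22). Of the other 7 genes, log2 ratios ran from -0.14 (Exosc8) to 0.04 (Exosc7) in Sertoli-like cells and from -0.21 (Exosc5) to 0.01 (Exosc3) in stromal cells. Their differences between cell classes were not tested.

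Of the 3 classes, Exosc2 was highest in germ-like, then Sertoli-like, then stromal cells in both libraries, with intervals that do not overlap. Within the stromal class, Stroma-like cells were at 17.8 (16.4 to 19.2) and 18.5 CPM (17.1 to 20.1), and peritubular myoid-like cells at 15.1 (13.4 to 17.0) and 15.1 (13.5 to 16.8). These groups' intervals overlap in the control and not in the Cnot3-cKO. The 47 and 56 macrophage-like cells gave 11.9 (5.71 to 21.9) and 18.8 (11.2 to 29.8), and the 31 and 40 endothelial-like cells 11.9 (3.85 to 27.7) and 25.8 (13.7 to 44.1), intervals that overlap those of both stromal groups. Over the 13 clusters with at least 20 cells in each library, Exosc2 was higher in the Cnot3-cKO in 12, with log2 ratios of -0.00 to 1.12, the last in the endothelial-like cluster from 5 and 13 UMIs, and Exosc10 in 13 (0.04 to 0.70). Exosc8 was higher in 4 of the 13 (-0.23 to 0.27). Among the 5 Sertoli-like clusters the level and the ratio of Exosc2 were both highest in the cycling cluster, at 49.9 CPM in the control and 74.3 in the Cnot3-cKO (0.57, 0.37 to 0.78), where 8 cell-cycle genes summed to 3448 CPM.

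Clustering of the germ-like cells alone, leaving out exosome, cell-cycle and subset marker genes, gave 9 subclusters, of which 7 held at least 10 cells in each library. By summed UMIs, Exosc2 was higher in the Cnot3-cKO in 7 of the 7, with log2 ratios of 0.27 to 1.35, Exosc10 in 7 (0.17 to 0.90), Dis3 in 7 (0.35 to 1.20) and Exosc8 in 5 (-0.07 to 0.75), while Cnot3 was lower in 7. The top of each range came from a small subcluster led by somatic genes. For Exosc2 it was one led by Col1a2, Col1a1 and Sparc (15 and 14 cells), in which stromal markers summed to 2761 CPM. For Exosc10, Dis3 and Exosc8 it was one led by Rhox8, Aard and Clu (22 and 11 cells), in which Sertoli markers summed to 1504 CPM. In the other 5 subclusters the ratios ran from 0.27 to 0.88 for Exosc2, 0.17 to 0.44 for Exosc10 and 0.35 to 0.74 for Dis3. The level of Exosc2 in the median cell was lower in the Cnot3-cKO in 3 of the 7, namely 50.2 and 47.0 CPM in the unnamed subcluster led by Hmgn5, 66.98 and 64.4 in the smaller differentiating-like one and 43.4 and 37.5 in the SSC-like one. In the larger subcluster of differentiating-like spermatogonia, with 288 and 70 cells, Exosc2 was at 109 and 149 CPM (0.45, 0.30 to 0.60). In meiotic-like cells, of which there were 137 and 56, it was at 82.9 and 100 (0.27, 0.01 to 0.53). In the SSC-like subcluster present in both libraries, with 81 and 16 cells, it was at 70.4 and 130 (0.88, 0.48 to 1.27) by summed UMIs, with 644 CPM in the highest Cnot3-cKO cell. SSC stands for spermatogonial stem cell. The control progenitor-like cells (206 cells) had the lowest Exosc2 level of the control subclusters, 41.5 CPM. Only 5 Cnot3-cKO cells were progenitor-like, below the limit of 10, and they held 1 Exosc2 UMI (3.58 CPM, 0.09 to 19.96), against the direction of the 7.

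In this clustering the makeup of the germ-like class differed between the libraries. A second SSC-like subcluster, led by Nefm, Capg and Id4, held 280 of the 485 Cnot3-cKO cells and 1 of the 1153 control cells, and Exosc2 was at 160 CPM in it. With genes centred within each library before clustering, SSC-like subclusters instead held 188 control and 128 Cnot3-cKO cells, and 107 and 74. The split by library thus depends on the clustering, and centring also removes mean differences between the genotypes. Without the subcluster led by Nefm, Capg and Id4, a choice made after seeing the data, Exosc2 was at 87.3 and 135.4 CPM (log2 ratio 0.63), Exosc10 at 54.4 and 77.4 (0.51) and Dis3 at 112.9 and 202.0 (0.84), and 7 of the 10 ratios were above 0. The remaining 7 genes then ran from -0.06 (Exosc3) to 0.29 (Exosc4). Summed Sertoli markers in germ-like cells stood at 66.4 CPM in the control and 119 in the Cnot3-cKO (9 of 9 higher), stromal markers at 146 and 170 (6 of 6), myoid markers at 13.4 and 25.1 (5 of 6) and cell-cycle genes at 1113 and 1698 (7 of 8). SSC markers were at 129 and 241 (7 of 7 higher) and progenitor markers at 253 and 179 (0 of 6). Some of these shifts did not hold with the study's filters. Progenitor markers were then at 140 and 179 (3 of 6), myoid markers at 22.6 and 15.7 (1 of 6) and stromal markers at 350 and 348 (3 of 6). SSC markers kept their direction, at 177 and 232 (6 of 7), as did cell-cycle genes, at 1227 and 1659 (7 of 8). Sertoli-like and stromal cells had a lower Exosc2 level than germ-like cells in both libraries. The germ subclusters led by Col1a2 and by Rhox8 had the highest Exosc2 log2 ratios, 1.35 and 1.01. The part of these shifts in makeup and markers in the exosome ratios was not tested.

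**Figure D3:**
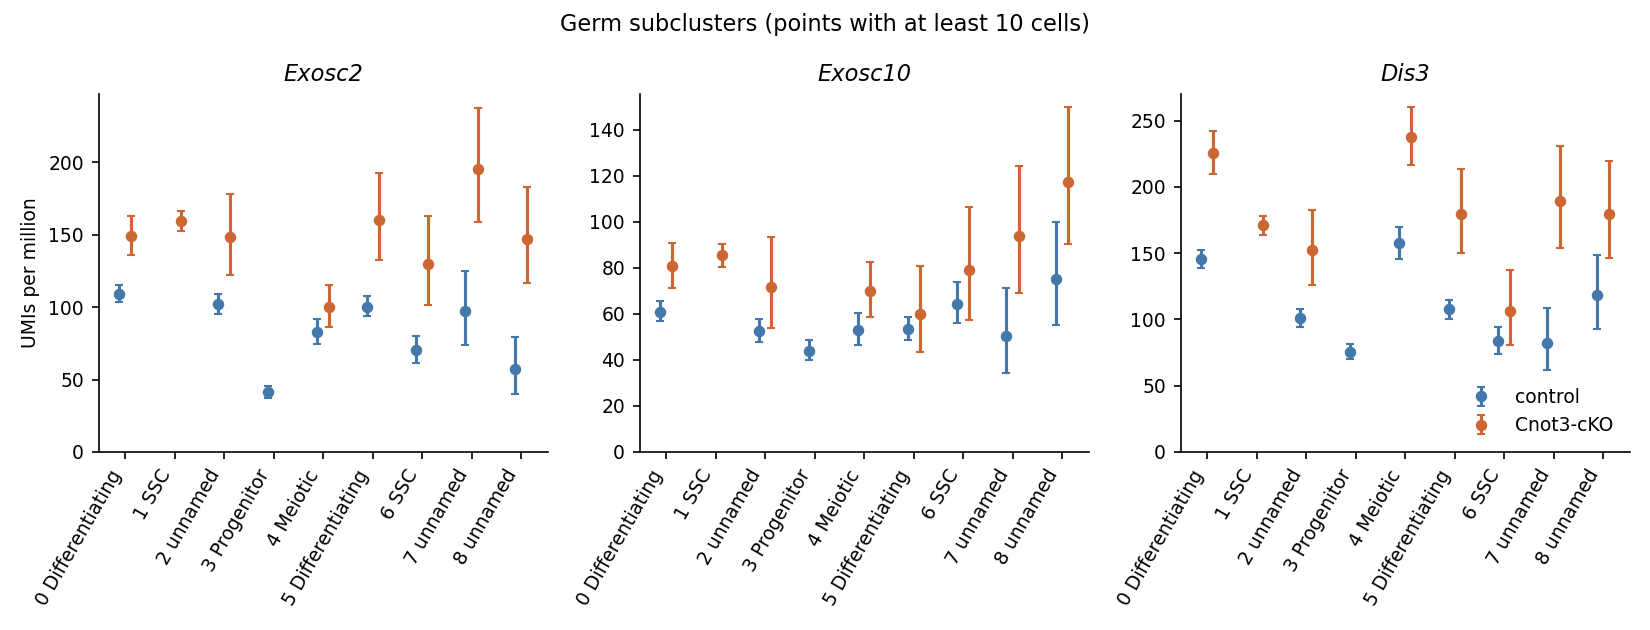
Exosc2, Exosc10 and Dis3 in CPM in each germ subcluster, named by its leading markers, for the control (blue) and Cnot3-cKO (orange) library, where at least 10 cells were present. Bars are 95% Poisson intervals. In each of the 7 subclusters with both points, the Cnot3-cKO point is the higher for all 3 genes, by log2 ratios of 0.27 to 1.35 for Exosc2 (0.27 to 0.88 without the subclusters led by Rhox8 and by Col1a2).

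Exosc2 differed from the other exosome genes in how unevenly its transcripts were spread over germ-like cells. In the control the median cell had 48.6 CPM, the 95th percentile cell 352 and the 99th 611, and in the Cnot3-cKO these were 70.4, 598 and 1361. The most Exosc2 UMIs in any cell were 54 (of 72588 UMIs) and 91 (of 56568). The 5% of cells with the most UMIs of the gene, 58 and 25 cells, held 29.8% of the Exosc2 UMIs in the control and 33.5% in the Cnot3-cKO, against 10.9% to 16.5% for the other 9 genes. Dis3, by comparison, shifted throughout the cells, with a median of 103.1 in the control and 173.6 CPM in the Cnot3-cKO and 14.8% and 13.5% of UMIs in the top 5% of cells.

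After each cell was thinned to 10000 UMIs, which left out 22 and 8 shallower cells, the variance of Exosc2 over its mean in germ-like cells was 2.39 for the control and 5.14 for the Cnot3-cKO. For counts spread evenly this value is near 1, and for the other 9 genes it was 0.96 to 1.28. It ranked 11th of 2711 genes of like mean in the control and 3rd of 1662 in the Cnot3-cKO. In Sertoli-like cells it was 1.72 and 3.27 (83rd of 4500 and 19th of 4421 genes of like mean), and in stromal cells 1.04 and 1.19 (2241st of 4751 and 506th of 4793). Exosc2 transcripts were thus patchy in germ-like and Sertoli-like cells in both libraries. In stromal cells they were close to even in the control and less so in the Cnot3-cKO. Stromal cells held few Exosc2 UMIs (thinned means of 0.168 and 0.172), which limits how uneven the counts can appear. Counting intervals take UMIs as independent, so those given for Exosc2 in germ-like and Sertoli-like cells are too narrow for its spread over cells.

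**Figure D4:**
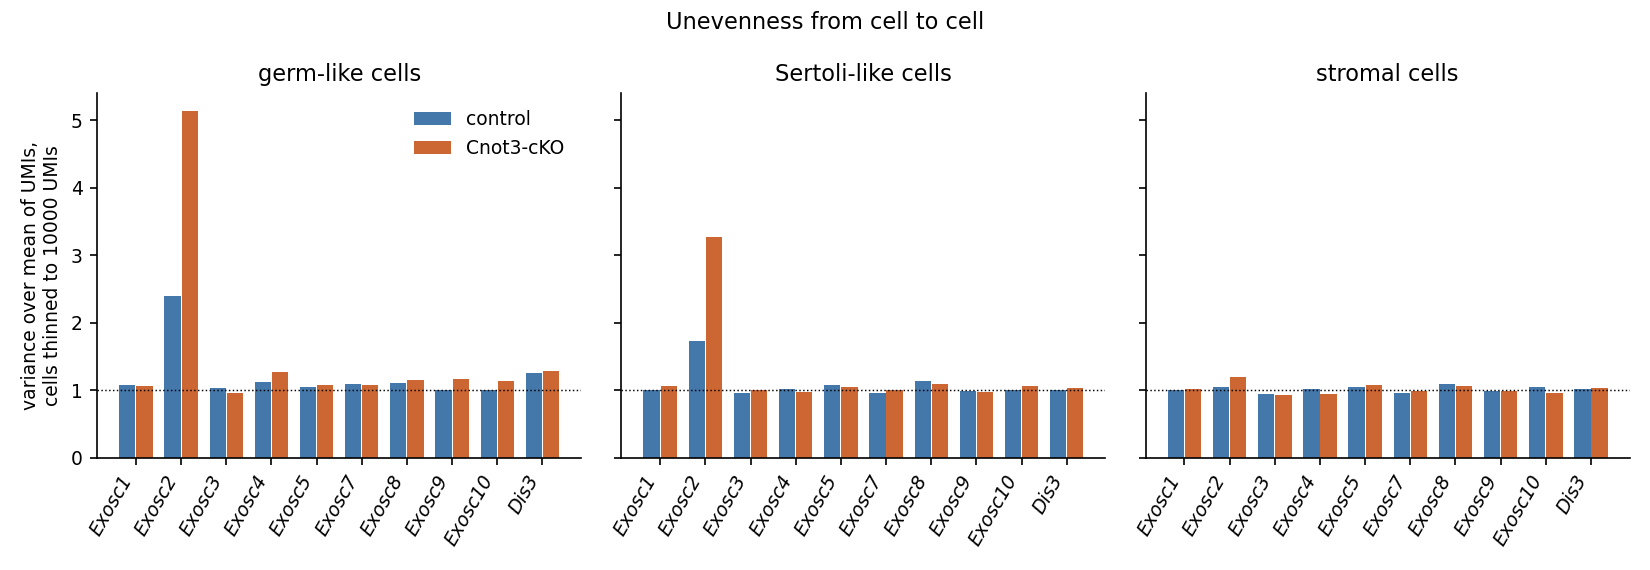
Variance over mean of UMIs per cell for each exosome gene, with each cell thinned to 10000 UMIs, in 3 cell classes for the control (blue) and Cnot3-cKO (orange) library. The dotted line at 1 marks counts spread evenly, and Exosc2 reaches 2.39 and 5.14 in germ-like cells while the other genes stay between 0.96 and 1.28 there.

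The share of thinned cells with at least 5 Exosc2 UMIs among germ-like cells was 3.63% for the control and 9.43% for the Cnot3-cKO, 0.421% and 1.37% in Sertoli-like cells, and 0% and 0.122% in stromal cells. No control stromal cell of 3335 had 5 or more, which allows a share of up to 0.090%. The share with any Exosc2 UMI was 45.8% (exact binomial interval 42.9 to 48.8) and 57.2% (52.7 to 61.7) in germ-like cells, against 78.9% and 86.0% before thinning. It was 21.0% and 21.0% in Sertoli-like cells (27.1% and 26.4% before thinning), at median depths of 13279 and 12746, and 15.1% and 15.2% in stromal cells (21.0% and 19.3%). In Sertoli-like cells the share of cells with the transcript was thus alike between libraries while the share with many copies was not. In empty barcodes, which hold free RNA, Exosc2 was at 57.8 and 74.1 CPM, and free RNA was estimated at 2.39% to 3.54% of the UMIs of a class.

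**Figure D5:**
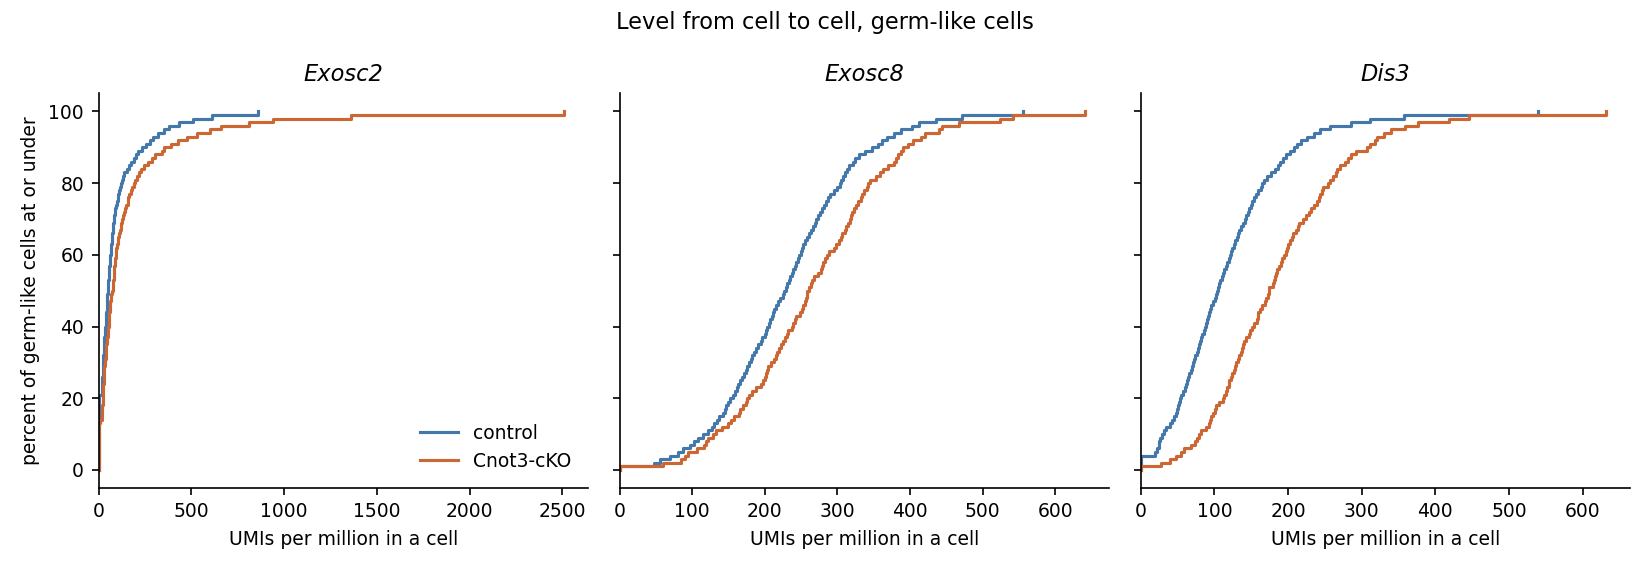
Cumulative share of germ-like cells (percent) against the level of Exosc2, Exosc8 and Dis3 in a cell (CPM), for the control (blue) and Cnot3-cKO (orange) library. Exosc8 and Dis3 curves shift as a whole, with Dis3 medians of 103.1 and 173.6, whereas the Exosc2 curves, with medians of 48.6 and 70.4, end in long tails that reach 859 and 2512 CPM.

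The cells at the top of the Exosc2 range, here the 5% with the highest Exosc2 CPM rather than the most UMIs, did not stand out in the other exosome genes. The other 9 genes summed to 909 CPM in the top 5% of control cells and 921 in the rest, and to 1108 and 1117 in the Cnot3-cKO. Top cells were somewhat shallower, with a median of 38326 UMIs against 41593 in the control and 40245 against 45449 in the Cnot3-cKO, and had 10.8% against 10.3% and 10.0% against 9.1% mitochondrial UMIs. In the control, 25 of the 58 top cells lay in the larger differentiating-like subcluster (43.1%, against 24.98% of all germ-like cells) and 2 in the progenitor-like subcluster. In the Cnot3-cKO, 17 of the 25 lay in the SSC-like subcluster that, in the clustering used, was nearly absent from the control (68% of top cells against 57.7% of all). Leaving out the top 5% of cells in each library, a choice made after seeing the data, left Exosc2 at 66.8 and 108.4 CPM (log2 ratio 0.70).

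The study's own filters keep at most 10% mitochondrial UMIs and drop cells beyond 2 SD of the mean depth, which left 241 control and 73 Cnot3-cKO germ-like cells. In these, Exosc2 was at 84.2 and 274.9 CPM (log2 ratio 1.71, 1.52 to 1.89). Sertoli markers summed to 105.7 CPM in the filtered control cells and 302.4 in the Cnot3-cKO ones (8 of 9 higher), and their part in the ratio was not tested. Of its 420 Cnot3-cKO UMIs there, 221 (52.6%) came from 3 cells, and the median cell had 48.7 CPM in the control and 52.1 in the Cnot3-cKO. Without the 3 cells with the most Exosc2 UMIs in each library, a choice made after seeing the data, the levels were 75.6 and 139.4. That log2 ratio of 0.88 lies below the counting interval of 1.52 to 1.89. Exosc10 was at 56.6 and 74.6 in the filtered cells (0.40, 0.09 to 0.70), below 1.5-fold, and Dis3 at 121.2 and 191.1 (0.66, 0.46 to 0.85). Of the 10 ratios, 8 were above 0 (53.2% of 8047 genes were), the exceptions being Exosc1 (-0.26, -0.53 to -0.00) and Exosc4 (-0.17, -0.47 to 0.12).

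The Exosc2 difference in germ-like cells was present at both ends of depth and mitochondrial content. It was 1.01 on the log2 scale in cells with at most 38000 UMIs and 0.73 in deeper cells, and 0.79 in cells with at most 10% mitochondrial UMIs and 0.77 in the others. Exosc10 was at 0.60 and 0.60, then 0.56 and 0.55, and Dis3 at 0.66 and 0.71, then 0.54 and 0.78. Dis3 thus fell short of 1.5-fold in the cells with few mitochondrial UMIs, where its control level was 130.1 rather than 98.4 CPM.

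Dis3 was over 1.5-fold higher in the Cnot3-cKO library in all 3 classes, as were 10 of 10470 genes (0.0955%), and it was higher in 13 of 13 clusters (log2 ratio 0.26 to 1.07). In Sertoli-like cells thinned to 10000 UMIs its ratio was 0.57, short of 1.5-fold. Its levels were 17.2 and 27.7 CPM in Sertoli-like cells (0.69, 0.56 to 0.81) and 22.2 and 34.4 in stromal cells (0.63, 0.53 to 0.74). Of the other 9 such genes, named after their values were seen, Fos, Fosb, Nr4a1 and Socs3 are immediate early or cytokine response genes, and Tdrd3 (chr14:87416639-87545504) and Tbc1d4 (chr14:101442360-101609191) lie on the chromosome of Dis3. Slc38a9, Uchl4 and AC121973.1 complete the list.

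Genes close to Dis3 were therefore examined, again after the values were seen. Pibf1, which overlaps Dis3 by 347 bases on the opposite strand, had log2 ratios of 0.49, 0.66 and 0.80 in germ-like, Sertoli-like and stromal cells. Bora, next to Dis3 on its other side, had 0.56, 0.62 and 0.30, and Mzt1 had 0.19, 0.52 and 0.46. Within 1 Mb of Dis3, 0 of 5 tested genes were over 1.5-fold higher in germ-like cells, 2 of 5 in Sertoli-like and 4 of 7 in stromal cells, and 1 of the 7, RP24-190H19.2, was lower in all 3 classes (-0.38, -0.27 and -0.15). Over all genes these shares were 7.83%, 1.1% and 1.29%. Around Exosc2 the counts higher were 2 of 32 in germ-like cells, where another 2 were lower (3.54% of all genes were), 0 of 32 in Sertoli-like and 1 of 36 in stromal cells. Around Exosc10 they were 4 of 32, 0 of 29 and 1 of 27. Whether a chromosomal segment differs between the mice was not tested, and the libraries differ in their mice as well as in Cnot3.

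Sequence shared with other transcripts bears on what a 3′ tag counts. In the last 500 bases of its transcript, Exosc2 matched 365 other genes in the same orientation over at least 100 bases at 85% identity or more, and Dis3 matched 288, of which 224 were shared, whereas the other 8 exosome genes matched none in that orientation. The tags of Exosc2 and Dis3 are uncertain to that extent. Of the genes matching the Exosc2 tail, 21 of 251 tested lay over 1.5-fold up in germ-like cells of the Cnot3-cKO (8.37%; median log2 ratio 0.07), and of those matching the Dis3 tail 19 of 201 (9.45%; median 0.06). Over all genes tested the share was 7.83% and the median 0.02. In Sertoli-like cells 1 of 234 and 0 of 190 were (1.1% of all genes), with medians of 0.04 and 0.04 against 0.04, and in stromal cells 2 of 236 and 0 of 190 (1.29% of all genes), with medians of -0.02 and -0.03 against -0.02. Over 1.5-fold lower were 3 of 251 and 1 of 201 in germ-like cells (3.54% of all genes). In Sertoli-like cells 4 of 234 and 2 of 190 were lower by that much (0.961% of all genes), and in stromal cells 3 of 236 and 1 of 190 (0.946%). The part of the shared sequence in the ratios of Exosc2 and Dis3 was not tested. As to antisense genes, Gm13427, which overlaps Exosc2 over 4986 bases on the opposite strand, had 4 and 3 UMIs in germ-like cells, while Ccna2, a cyclin gene that overlaps Exosc9 over 863 bases on the opposite strand, had 6665 and 5373.

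From cell to cell among germ-like cells, Exosc2 correlated more with a noncoding transcript than with the other exosome genes. RP23-48M16.13, a lincRNA at chr14:44544055-44637201 (minus strand), had the highest Pearson correlation with Exosc2 of all genes over germ-like cells, 0.32 in the control (n = 1153 cells) and 0.43 in the Cnot3-cKO (n = 485 cells), and was named after its values were seen. The next genes were Ptma at 0.18 and Ddx39 at 0.23. The lincRNA stood at 2276 and 4003 CPM in germ-like cells of the 2 libraries and at 149.9 and 179.1 in the Sertoli-like class. Over its 93147 bases, it shares a stretch of 170 bases at 94.1% identity with an Exosc2 transcript (bases 1469 to 1638 of 1686). That stretch lies in the last 500 bases, where the matches to 365 other genes ran from base 265 to 493, so it is not particular to this lincRNA. Whether reads of the lincRNA are counted as Exosc2 was not tested. The other 9 exosome genes correlated with Exosc2 at -0.04 to 0.10 in the control and -0.02 to 0.14 in the Cnot3-cKO, over the same cells, and all these points share a library. The highest of the 9 were Exosc10 in the control (262nd of 13647 genes) and Exosc7 in the Cnot3-cKO (99th of 14230). The lincRNA was far more abundant than the exosome genes, and the part of abundance in these correlations was not tested. In Sertoli-like cells the genes closest to Exosc2 were Pclaf (0.19), Tk1 and Tyms in the control and Esco2 (0.17), Hist1h2ap and Top2a in the Cnot3-cKO, all of them active in the cell cycle, and the lincRNA ranked 212th and 152nd.

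Over 24 profiles of cluster and library with at least 50 cells each, and among 9195 genes, the genes most like Exosc2 were Ppig (Pearson r of log2 levels 0.966), Skiv2l2 (0.965), Rnf4 (0.964), Setd1a (0.964) and RP23-48M16.13 (0.963). Skiv2l2 encodes the nuclear exosome helicase. These profiles share 2 libraries and split mainly into germ-like and somatic cells, and nothing is read from the order of such close values. Between exosome genes the correlation over these profiles ran from 0.40 (Exosc4 and Dis3) to 0.93 (Exosc10 and Dis3), and that of Exosc2 with the others from 0.74 to 0.93.

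The cofactors of the exosome and other exonucleases, a list of 21 genes that also counts Exosc6 (at 0 UMIs), showed no member past 1.5-fold in any class. Of all genes, 7.83% were higher and 3.54% lower by that much in germ-like cells, 1.1% and 0.961% in Sertoli-like and 1.29% and 0.946% in stromal cells, and nothing is read from a count of 0 among 19 or 20 genes. In germ-like cells 9 of the 19 with at least 100 UMIs were higher in the Cnot3-cKO (52.7% of all genes were), with a median log2 ratio of -0.01. They ran from -0.44 for Zcchc7, a subunit of the TRAMP complex that marks nuclear RNA for the exosome (79.2 and 58.5 CPM), to 0.27 for Zfc3h1, which links poly(A) RNA to the nuclear exosome (21.3 and 25.7). Skiv2l2 was at 113.5 and 127.8 (0.17, 0.11 to 0.24). The 5′ to 3′ exonucleases stood close between the libraries, Xrn1 at 55.3 and 52.8 (-0.07, -0.17 to 0.03) and Xrn2 at 269.5 and 273.1 (0.02, -0.03 to 0.06). In Sertoli-like cells 12 of 20 (60.7% of all genes) and in stromal cells 14 of 20 (44.5%) were higher, with medians of 0.05 and 0.05.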

How the data were processed

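The authors deposited raw UMI counts per gene and barcode from Cell Ranger 3.0.1 (mm10, Ensembl 93), in 1 matrix per genotype that merges its 2 samples and lists every barcode of the kit. Cells were called from these counts by Cell Ranger's order-of-magnitude rule with 3000 expected cells (8341 control and 9336 Cnot3-cKO), and cells with over 20% mitochondrial UMIs or called as doublets by Scrublet (486 and 459) were left out. No upper bound on UMIs was set, since germ cells are deep. The remaining cells were clustered with Leiden (scanpy 1.11.5, leidenalg 0.10.2, 2500 variable genes, 30 components, 15 neighbours, resolution 0.5) and named X-like from marker lists. The deposited counts were summed per library and class and given per 1000000 UMIs of the class (CPM). Levels carry exact Poisson intervals and ratios exact conditional binomial intervals (scipy 1.17.1). No test between genotypes was possible with 1 library each, so a gene was called when past 1.5-fold with at least 100 UMIs over both libraries. PCR duplicates are removed by UMIs, and depth was 181550221 and 168770743 UMIs. The scripts were tested on simulated data.

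Genes named were the 10 exosome genes, the 21 genes made up of Exosc6, cofactors and other exonucleases, Cnot3 and the 5 genes most like Exosc2 over profiles (log2 of CPM plus 1, mean of at least 10). Genes outside this rule are said to be chosen after their values were seen. The genes, lists and settings were chosen with earlier results of these data known. Coordinates come from a GENCODE annotation of mm10 (99.8% of gene IDs matched without their version), and transcript ends were compared with blastn 2.17.0. Alternatives covered the study's filters, mitochondrial limit, doublets, clustering, scaling, weights, depth, free RNA and the filter on low counts.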

Additional observations from a re-analysis of the deposited data

Results flagged for a closer look

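Some ring genes lay above 0 in germ-like cells and below 0 in a somatic class, with counting intervals on opposite sides of 0 in the 1 library of each genotype. Exosc5 had log2 ratios of 0.21 in germ-like, -0.13 in Sertoli-like and -0.21 in stromal cells, and Exosc8 had 0.22, -0.14 and -0.17. Exosc4 had 0.20 in germ-like and -0.11 in stromal cells, and Exosc7 0.25 and -0.076. None of these differences between classes was tested, as there is no replicate of either genotype. All these ratios are below 1.5-fold. Without the SSC-like subcluster that, in the clustering used, was nearly absent from the control, Exosc8 was at 0.02 and Exosc7 at 0.06 in germ-like cells.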

How the results depend on the processing

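No paired analysis was possible because each matrix merges the samples of its genotype, and for the same reason no replicate could be left out. Other clustering resolutions, and centring within library, left the germ-like and Sertoli-like cells the same. Those alternatives repeat the values of these classes and are counted below. The Exosc2 log2 ratio in germ-like cells, 0.78 as reported, lay between 0.63 and 1.71 over 17 alternatives and was always above 0. It was 1.71 with the study's filters and, in settings chosen after seeing the data, 0.88 with those filters less the 3 cells with the most Exosc2 UMIs, 0.63 without the Cnot3-cKO SSC-like subcluster and 0.70 without the top 5% of cells. The summed ratio in germ-like cells, 0.33, was 0.42 with the study's filters, 0.31 with median-of-ratios scaling, 0.29 with totals less mitochondrial and the 50 most abundant genes, 0.30 with subclusters weighted the same, 0.26 without that subcluster and 0.18 without Exosc2, Exosc10 and Dis3. In Sertoli-like cells it was -0.032 with median-of-ratios scaling against 0.003 as reported, and in stromal cells it changed sign, from -0.04 to 0.0033, with Stroma-like clusters only. Germ-like over Sertoli-like cells, the Exosc2 ratio of 1.57 was 1.40 with median-of-ratios scaling and 1.68 with thinned cells. Both other scalings left Exosc10 short of 1.5-fold in germ-like cells (0.57 and 0.56), and Dis3 was at 0.57 in thinned Sertoli-like cells. A mitochondrial limit of 10% left 3 of the 30 member ratios past 1.5-fold in place of 5, with Exosc10 at 0.56 and Dis3 at 0.54 in germ-like cells. Among single genes in germ-like cells, Exosc3 changed sign to -0.052 and Exosc9 to -0.11 with subclusters weighted the same, Exosc3 to -0.064 without the SSC-like subcluster, and Exosc4 to -0.17 and Exosc1 to -0.26 with the study's filters. The causes were not tested. Over the 3 classes, 25 of 402 alternative values for single genes had the opposite sign to the value as reported, 10 of them in germ-like cells. The 1437 genes past 1.5-fold in germ-like cells became 779 with at least 300 UMIs, 5285 with no filter beyond 1 UMI in each library (3937 higher, 1348 lower) and 839 with the study's filters (485 higher and 354 lower, against 990 and 447). The count of 0 cofactors past 1.5-fold held in all 14 alternatives run. With 1 library per genotype, differences between animals, dosing and genotype cannot be told apart.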
